A study of Homo sapiens with 28 samples.

Results

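The genes described here make peptides for, and load them onto, major histocompatibility complex (MHC) class I molecules: the immunoproteasome subunits PSMB8, PSMB9 and PSMB10, the proteasome activator subunits PSME1 and PSME2, the peptide transporter subunits TAP1 and TAP2, the loading factor TAPBP, the class I heavy chain HLA-E and the light chain B2M. They were picked by symbol, from probe sets whose platform annotation gives 1 gene symbol. Of the 10 listed genes 9 could be read that way, through 18 of 54675 probe sets, while the probe set of PSME2 carries a further symbol and was not read. Each gene was read from its probe set with the highest mean signal over the arrays, and all 9 passed the filter on low signals, among 15448 genes tested of 19775 read.

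The 28 arrays hold RNA from U266, MM.1s, KMS11 and 8226/S, 4 established human lines of multiple myeloma, a cancer of plasma cells. Each line was profiled once after 6, 24 and 48 h of 2 µM arsenic trioxide (ATO, an inorganic arsenical). It was also profiled once after 6 and 24 h of darinaparsin (DAR, an organic arsenical that carries a dimethylated arsenic on glutathione). The DAR dose was 4 µM for U266 cells, 3 µM for both MM.1s and KMS11 cells, and 2 µM for 8226/S cells. Every line also has 2 untreated arrays, called Control 2 and Control 1, which stand at 0 h, so time in culture and treatment cannot be told apart. The ATO arrays were set against Control 2 and the DAR arrays against Control 1 of the same line, and all times of 1 agent share those controls. A treatment thus has 4 arrays, 1 per line, and the lines serve as replicates. The p-values and SEs of a treatment use 1 spread per gene, estimated over all 28 arrays and all treatments. They do not measure the spread of 1 treatment's change between the 4 lines.

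MHC class I molecules show peptides of the cell's own proteins to T cells. The immunoproteasome is a form of the proteasome in which the catalytic subunits are exchanged: PSMB8 takes the place of PSMB5, PSMB9 that of PSMB6 and PSMB10 that of PSMB7. Interferon gamma raises these genes in many cell types, and blood-derived cells carry immunoproteasome without it. TAP1 and TAP2 form the pump that moves peptides into the endoplasmic reticulum, TAPBP (tapasin) holds empty class I molecules next to it, and B2M joins the heavy chains. HLA-E is a non-classical heavy chain that binds leader peptides of other class I proteins and is read by receptors of natural killer cells.

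The labelled cell type was checked against its markers. All 10 plasma cell markers read lay above the array median on over 14 of the 28 arrays, and 7 of them, SDC1, TNFRSF17, XBP1, PRDM1, IRF4, POU2AF1 and JCHAIN, on all 28. Of 11 markers of other cell types that were read, CD14 was above the median on 0 arrays, CD3D on 2 and LYZ on 3, while PECAM1 was above it on 28, HBB on 26, COL1A1 on 22, KRT18 on 17 and CD3E on 15. The median signal of a probe set ranged from 110.9 to 147.3 on the Control 2 and ATO arrays and from 65.5 to 108.7 on the Control 1 and DAR arrays, although all arrays share a trimmed mean near 500.1. In RNA from whole cultures, fewer expressing cells and less RNA per cell cannot be told apart.

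Several of the genes lie close together. In GRCh38.p14, TAP2 runs from 32821831 to 32838739 on chromosome 6, PSMB8 from 32840717 to 32844679, TAP1 from 32845209 to 32853704 and PSMB9 from 32854192 to 32859851. TAP1 and PSMB9 point away from each other across 487 bases. HLA-E lies on the same chromosome at 30489509 to 30494194 and TAPBP at 33299694 to 33314078. PSME1 and PSME2 are neighbours on chromosome 14, B2M lies on chromosome 15 and PSMB10 on chromosome 16.

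RefSeq windows from 250 bases before to 50 after an annotated start were at hand for 9 of the 10 genes, and HLA-E had none. There were 11 windows in all, with 2 each for TAP1 and PSMB8. Windows of 5 genes are printed: those of PSMB8, PSMB9 and TAP2, whose signal changed, of TAP1, which shares its upstream interval with PSMB9, and of B2M, which was not called after any treatment. Capitals mark the interferon-stimulated response element core (ISRE, GAAANNGAA), the gamma-activated site core (GAS, TTCNNNGAA) and the NF-kB core (GGGNNTTCC), searched on both strands.
PSMB8, chr6:32843998-32844297, minus strand: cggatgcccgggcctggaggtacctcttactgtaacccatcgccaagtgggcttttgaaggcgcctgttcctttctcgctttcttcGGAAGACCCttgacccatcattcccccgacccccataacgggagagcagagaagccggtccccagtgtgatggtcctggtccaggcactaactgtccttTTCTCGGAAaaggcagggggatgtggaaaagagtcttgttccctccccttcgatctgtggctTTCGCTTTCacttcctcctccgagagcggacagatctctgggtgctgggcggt
PSMB9, chr6:32853942-32854241, plus strand: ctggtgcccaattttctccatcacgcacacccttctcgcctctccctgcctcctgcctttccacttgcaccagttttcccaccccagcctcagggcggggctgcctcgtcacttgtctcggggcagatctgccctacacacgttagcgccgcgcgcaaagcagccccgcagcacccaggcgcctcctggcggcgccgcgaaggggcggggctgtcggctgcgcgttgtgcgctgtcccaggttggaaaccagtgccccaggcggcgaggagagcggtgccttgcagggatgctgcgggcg
TAP1, chr6:32853655-32853954, minus strand: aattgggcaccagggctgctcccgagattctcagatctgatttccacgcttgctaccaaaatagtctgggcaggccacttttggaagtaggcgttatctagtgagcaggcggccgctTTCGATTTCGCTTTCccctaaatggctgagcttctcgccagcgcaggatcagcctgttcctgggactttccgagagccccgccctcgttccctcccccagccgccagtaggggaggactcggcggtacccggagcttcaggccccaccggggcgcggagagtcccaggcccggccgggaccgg
TAP2, chr6:32838690-32838989, minus strand: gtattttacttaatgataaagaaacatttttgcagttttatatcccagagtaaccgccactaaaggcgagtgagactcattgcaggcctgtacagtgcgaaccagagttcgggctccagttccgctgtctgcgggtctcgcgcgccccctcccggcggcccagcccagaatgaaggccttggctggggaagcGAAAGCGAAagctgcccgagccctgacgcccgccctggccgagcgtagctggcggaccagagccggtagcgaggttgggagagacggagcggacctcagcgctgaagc
B2M, chr15:44711267-44711566, plus strand: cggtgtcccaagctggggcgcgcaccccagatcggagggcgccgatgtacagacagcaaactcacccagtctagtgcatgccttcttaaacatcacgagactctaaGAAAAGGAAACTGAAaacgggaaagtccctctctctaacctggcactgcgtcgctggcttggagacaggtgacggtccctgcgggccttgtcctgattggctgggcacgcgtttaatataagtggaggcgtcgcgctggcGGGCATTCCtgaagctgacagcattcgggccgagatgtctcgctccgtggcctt

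An ISRE core was found in 8 of the 11 windows (72.7%), against 8.11% of the 35097 RefSeq windows of the same length, and in 8 of the 9 genes. Counted from the start that a window is set on, it begins at position -3 in the printed window of PSMB8 and -58 in TAP2. In B2M it begins at -144 and -138 and in TAP1 at -133 and -127, where the matches of a gene overlap. The printed PSMB8 window is set on a start inside the gene. The other PSMB8 window, chr6:32844630-32844929, holds the outer gene start and had a GC box but no ISRE core. PSMB9 had none in its window, and the TAP1 matches lie 355 and 361 bases before the PSMB9 start, outside it. The GAS core was in 2 windows (18.2%, against 7.66% of all) and the NF-kB core in 3 (27.3%, against 6.57%). The core of the NRF2 element (TGACNNNGC) was in 3 (27.3%, against 13.3%) and the GC box (GGGCGG) in 9 (81.8%, against 44.9%). The heat shock (GAANNTTC) and CRE (TGACGTCA) cores were in 0 windows (against 6.77% and 1.85% of all). These are matches of letters and not shown binding sites. Sites with other letters or lengths were not searched, so an unmarked stretch is not shown to lack a site.

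The untreated arrays show how the lines differed before treatment. HLA-E stepped down from line to line. It read 11305 and 8586 in Control 2 and Control 1 of MM.1s, 7071 and 7470.0 in U266, 4701 and 5824 in KMS11, and 3629.7 and 3676 in 8226/S. Both arrays of each line lay above both arrays of the next, so the order MM.1s, U266, KMS11, 8226/S held without overlap. In limma's F test over the 8 untreated arrays, with Benjamini-Hochberg adjustment over all genes, HLA-E was the only member called (adjusted p = 0.0233; called means an adjusted p under 0.05), 1 of 9 where 16.9% of all genes were called. With the control number as a block, 5 of 9 were called, HLA-E, TAP1, TAPBP, PSMB10 and PSME1, where 52% of all genes were. With each array centred on its median instead, limma called 0 of 9, with 0 at an unadjusted p under 0.05. With every probe set tested on its own, neither 217456_x_at nor 200904_at of HLA-E was called (limma F test, adjusted p = 0.108 and 0.053).

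**Figure D1:**
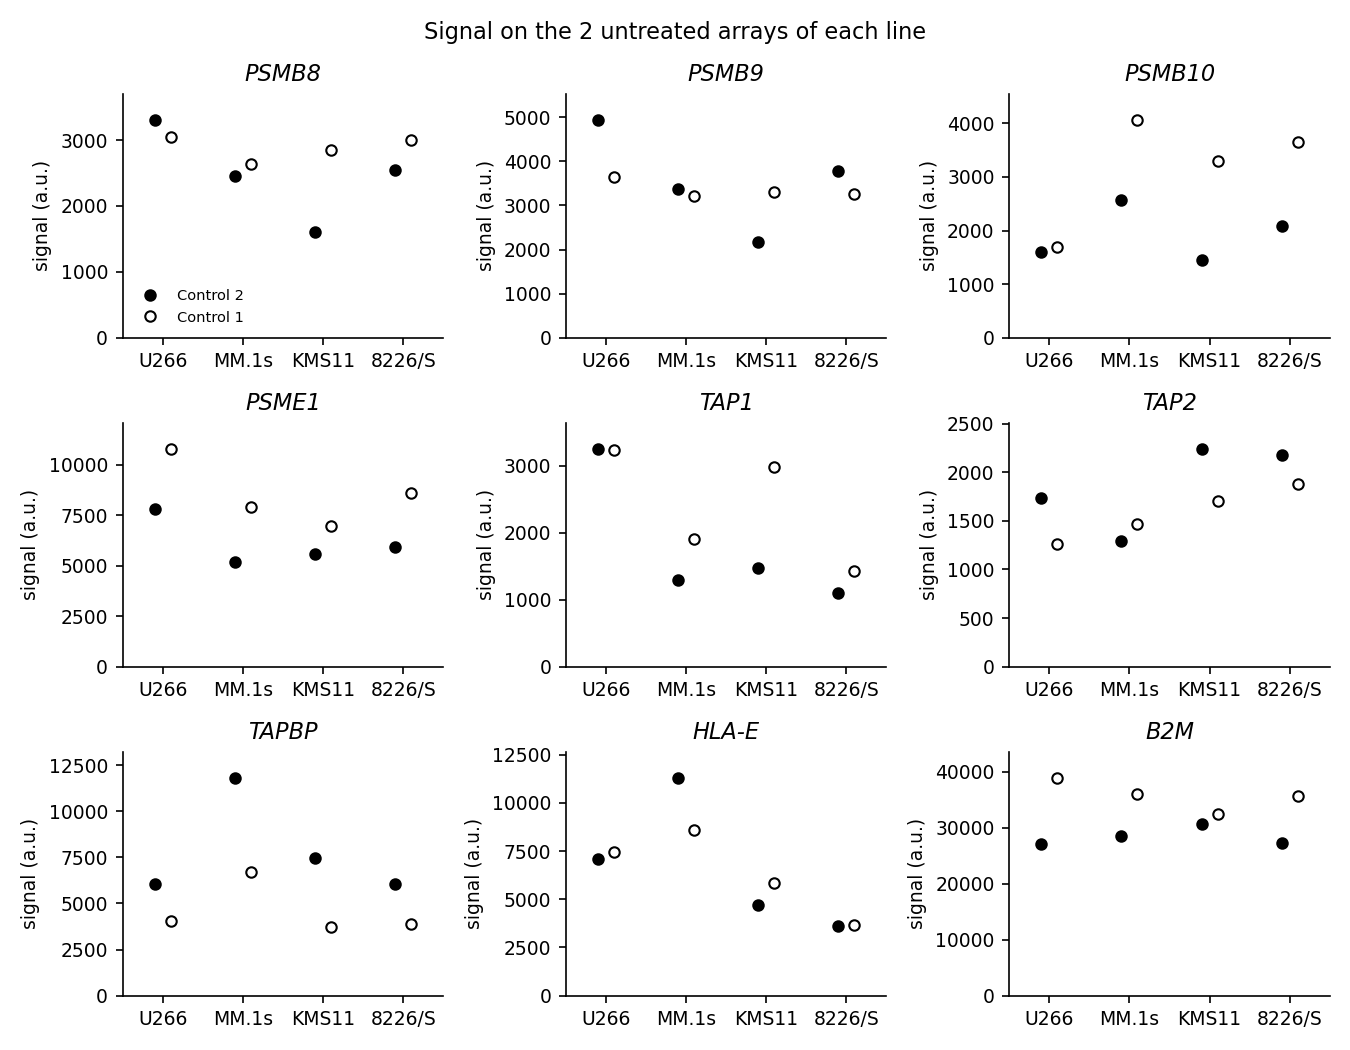
Signal of the 9 genes on the Control 2 (filled) and Control 1 (open) array of each line, in the arbitrary units of the authors' software; axes start at 0. On the probe set read, HLA-E steps down from MM.1s to 8226/S with no overlap between neighbouring lines in that order. TAPBP is higher in Control 2 than in Control 1 of every line.

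TAP1 read 3256 and 3232 in Control 2 and Control 1 of U266, 1476 and 2989.8 in KMS11, 1290.3 and 1908 in MM.1s, and 1094 and 1433 in 8226/S. U266 was above every other untreated array, and KMS11 and MM.1s overlapped. TAPBP read 11816 and 6679.9 in MM.1s, while the other lines lay between 6026 and 7463 in Control 2 and between 3699 and 4036 in Control 1. B2M read 27113 to 30609 in the Control 2 arrays and 32449 to 38960.4 in the Control 1 arrays.

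The controls of a line were not alike. Control 2 lay above Control 1 for TAPBP, by 0.76 ± 0.10 on the log2 scale (SE, n = 4 lines; limma adjusted p = 0.000426). It lay below Control 1 for PSMB10 (-0.68 ± 0.16), PSME1 (-0.48 ± 0.09), TAP1 (-0.48 ± 0.16) and B2M (-0.33 ± 0.09). These are 5 of 9 genes called, where 28.1% of all genes were called higher and 16.9% lower. Values for PSMB8, PSMB9, HLA-E and TAP2 did not pass the test, at -0.26, 0.03, -0.00 and 0.22. With every probe set tested on its own, other TAP2 probe sets were called in opposite directions. These were 204769_s_at (-0.66 ± 0.17) and 204770_at (0.72 ± 0.19). For TAPBP, 1555565_s_at was called at 2.52 ± 0.17, a wider gap than on the probe set read. After quantile normalization the B2M value was 0.08. On median-centred arrays the median of all genes was -0.32 in place of 0.21. There TAPBP (0.23) lost its call, and PSMB8 (-0.78), HLA-E (-0.53) and PSMB9 (-0.50) were called lower as well.

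After 6 h of ATO the immunoproteasome subunits PSMB8 and PSMB9 and the heavy chain HLA-E fell. Their log2 changes were -1.31 ± 0.26, -0.70 ± 0.15 and -0.78 ± 0.16 (SE of the fit, n = 4 lines). Between the lines, the changes had an SD of 0.88, 0.33 and 0.59 in the same order. B2M was at 0.01 ± 0.09. These 3 of 9 genes were called lower, where 2.67% of all genes were called lower and 3.75% higher. The median change of the 9 genes was -0.41, against -0.00 over all genes tested, and 8 of the 9 values lay below 0. The plasma cell markers moved in the same arrays: 4 of 10 were called lower at 6 h (median -0.60), 6 at 24 h (median -0.89) and 7 at 48 h (median -0.84) (limma, over all genes). Of all genes 2.67%, 2.29% and 5.49% were called lower at 6, 24 and 48 h. The summed signal of the plasma cell markers was 55073 to 96551 at 6 h, 49173 to 75233 at 24 h and 35234 to 79892 at 48 h of ATO, against 65111 to 130669 in Control 2. Of the markers of other cell types 0 of 8 tested were called after ATO at 6 h by limma, with 1 at an unadjusted p under 0.05, and their summed signal was 2613 to 17256, against 2447 to 14329.7 in Control 2. The part of these markers in the results was not tested.

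PSMB8, the chymotrypsin-like subunit of the immunoproteasome, read 2457 in Control 2 of MM.1s and 434, 1684 and 2085 at 6, 24 and 48 h of ATO. In KMS11 it read 1604 in Control 2 and 533, 831 and 439 at those times. In U266 it read 3309.5 in Control 2 and 1733, 2334 and 2442, and in 8226/S 2552 in Control 2 and 1977, 2111 and 2070.0. Every ATO array of every line was below its own Control 2, although treated and untreated arrays of different lines overlapped. The change at 6 h was -2.42 in MM.1s, -1.54 in KMS11, -0.92 in U266 and -0.36 in 8226/S, a mean fold of 0.403 on the log2(signal + 29) scale (adjusted p = 0.00259). It was called in each fit that left out 1 line (-1.63 to -0.94).

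PSMB9, the immunosubunit encoded beside TAP1, was lowest at 6 h in all 4 lines. It read 3383 in Control 2 of MM.1s and 1636, 2818 and 3969 at 6, 24 and 48 h of ATO, and 2179.9 in Control 2 of KMS11 and 1293, 1834 and 1481. It read 4948 in Control 2 of U266 and 2849, 2948 and 2897, and 3783 in Control 2 of 8226/S and 3197, 3759 and 3873. All 4 lines were lower at 6 h (-1.04 in MM.1s, -0.79 in U266, -0.74 in KMS11 and -0.24 in 8226/S; adjusted p = 0.00653). Without KMS11 the value was -0.69 and not called (adjusted p = 0.0712; over its alternatives 0.00742 to 1.000). PSMB10, the remaining immunosubunit, read 1325 to 1855 after 6 h of ATO, against 1453 to 2578 in Control 2, a change of -0.19 ± 0.15 that was not called.

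HLA-E was the one member called at all 3 times of ATO. It read 11305 in Control 2 of MM.1s and 3584, 3576 and 5523 at 6, 24 and 48 h. In U266 it read 7071 in Control 2 and 4699, 3606 and 4905, in KMS11 4701 in Control 2 and 3224, 2559 and 3396, and in 8226/S 3629.7 in Control 2 and 2892, 2726 and 3303. It was lower than Control 2 in every line at every time, and at 24 h the ATO arrays (2559 to 3606) did not overlap the Control 2 arrays (3629.7 to 11305). The fitted change was -0.78 ± 0.16 at 6 h, -0.97 ± 0.16 at 24 h and -0.54 ± 0.16 at 48 h (adjusted p = 0.00323, 0.000466 and 0.025). Without MM.1s the value at 6 h was -0.48 and not called (adjusted p = 0.0719; over its alternatives 0.00133 to 1.000), and the value at 48 h was -0.38 and not called, as it also was without U266 (-0.54) or KMS11 (-0.56). The value at 24 h was called in each fit that left out 1 line (-1.16 to -0.75).

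The probe set read for HLA-E ends in _x_at, a suffix of probes that can match related sequences. A dimmer one, 200904_at, lacks that suffix, and with every probe set tested on its own it changed by -1.74 ± 0.30 at 6 h, -2.10 ± 0.30 at 24 h and -1.31 ± 0.30 at 48 h (adjusted p = 0.00114, 0.0002 and 0.0076). On it MM.1s read 295 at 6 h, against 3032 in Control 2, and KMS11 read 162 at 6 h, against 755 in Control 2. The last of the HLA-E probe sets, 217456_x_at, was at -0.29, -0.56 and -0.50, called at 24 and 48 h.

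**Figure D2:**
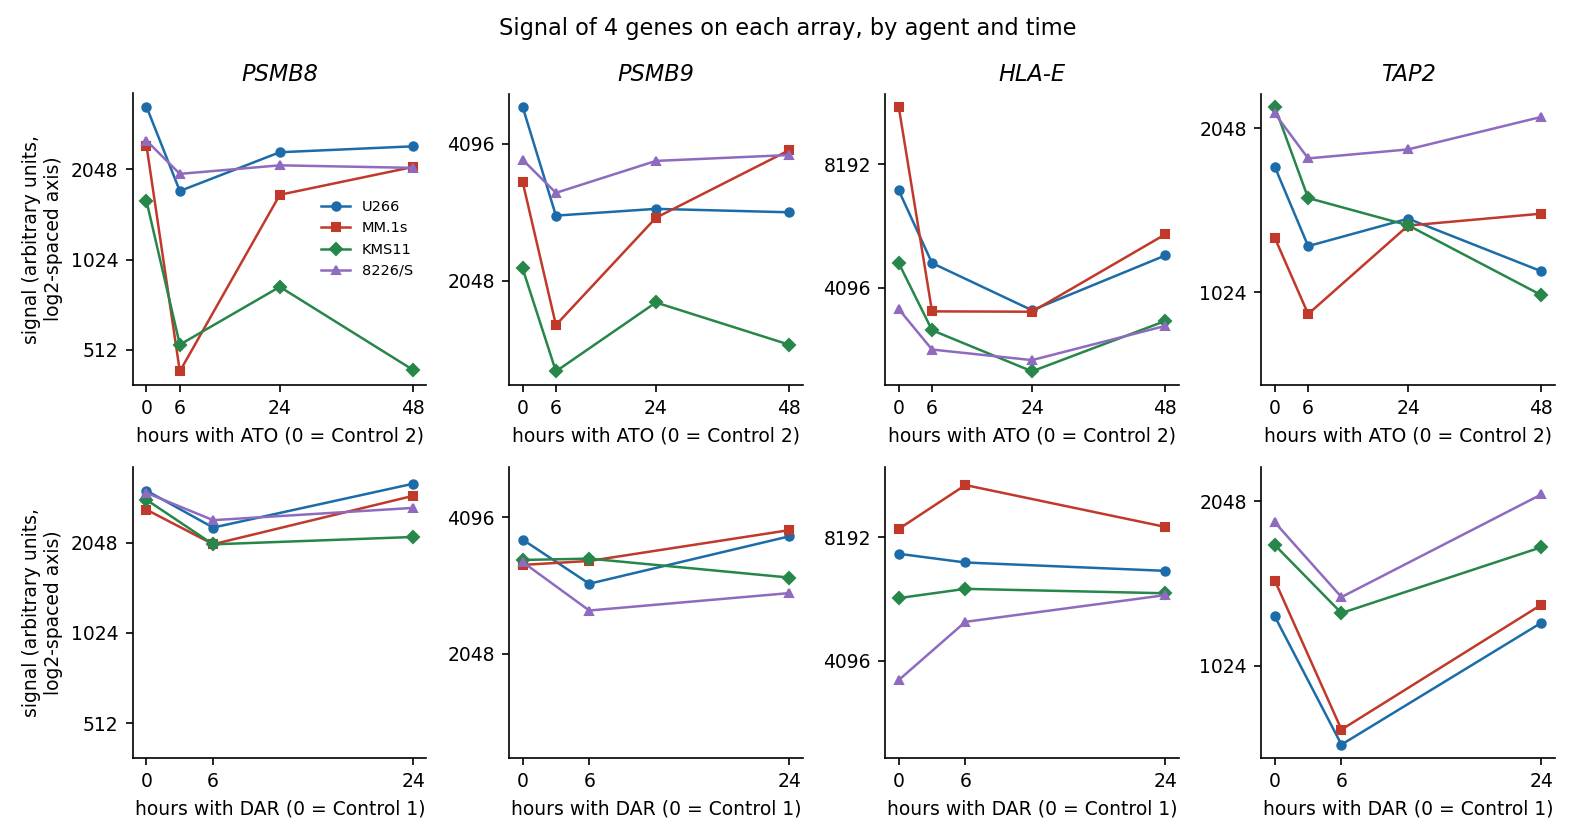
Signal on each array (log2-spaced axis, arbitrary units) against hours of treatment for PSMB8, PSMB9, HLA-E and TAP2, with ATO in the upper row and DAR in the lower row; each joined course is 1 cell line, and 0 h is its Control 2 (ATO) or Control 1 (DAR). PSMB8 dips at 6 h of ATO, to 434 in MM.1s and 533 in KMS11, and in KMS11 it is lower still at 48 h (439). HLA-E is lowest at 24 h of ATO in all 4 lines, and TAP2 dips at 6 h of DAR in all 4 lines.

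At 24 h of ATO, HLA-E was 1 of 9 members called, where 2.29% of all genes were called lower and 2.74% higher. PSMB8 was at -0.56 ± 0.26 (adjusted p = 0.241) and PSMB9 at -0.31 ± 0.15 (adjusted p = 0.282). The median of the 9 genes was -0.29, against 0.02 over all genes. At 48 h HLA-E was again the only one called, where 5.49% of all genes were called lower and 6.4% higher. PSMB8 was then at -0.69 ± 0.26 (adjusted p = 0.0826), with -1.80 in KMS11 and -0.43 to -0.23 in the other lines. The median of the 9 genes at 48 h was -0.20, against 0.06 over all genes.

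Between 6 and 24 h of ATO limma called 0 of 9 members, where 0.453% of all genes were called, and 2 had an unadjusted p under 0.05. These were PSMB8, at 0.75 ± 0.26 (adjusted p = 0.217), and PSMB9, at 0.39 ± 0.15 (adjusted p = 0.321). Between 24 and 48 h 0 of 9 were called, where 0% of all genes were, and HLA-E, at 0.44 ± 0.16 (adjusted p = 0.509), was the 1 member with an unadjusted p under 0.05.

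The transporter subunit TAP1 gave opposite values in different lines under ATO. It read 3256 in Control 2 of U266 and 1216, 1298 and 1540.1 at 6, 24 and 48 h, changes of -1.40, -1.31 and -1.07. In MM.1s it read 1290.3 in Control 2 and 1893, 1353 and 2224, changes of 0.54, 0.07 and 0.77. KMS11 and 8226/S lay between them at 6 h, at -0.57 and -0.21. The fitted TAP1 change at 6 h was -0.41 ± 0.24 and was not called (adjusted p = 0.384). TAP2, its partner in the pump, was lower in all 4 lines at 6 h (-0.55 to -0.27), and its fitted value of -0.44 ± 0.15 missed the threshold (adjusted p = 0.0992).

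A limma F test of line differences in the ATO response called 0 of 9 members, where 0.142% of all genes were called. HLA-E (unadjusted p = 0.0024, adjusted p = 0.287) and TAP1 (unadjusted p = 0.0103, adjusted p = 0.478) were the 2 with an unadjusted p under 0.05. For DAR the limma test called 0 of 9 (0.0324% of all genes) and 0 of 9 had an unadjusted p under 0.05. The DAR dose differs between lines, so line and dose cannot be told apart there.

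**Figure D3:**
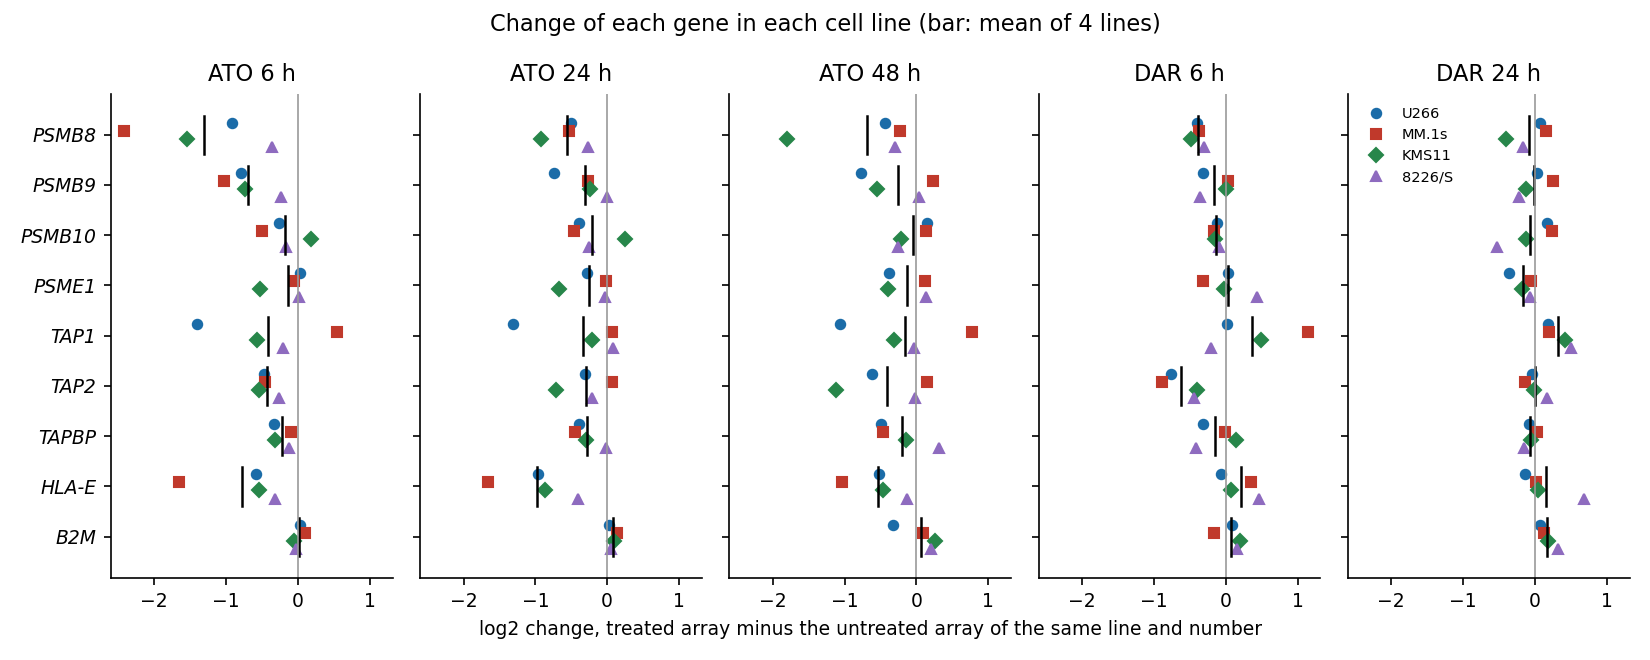
Log2 change of each gene in each line, treated array minus the untreated array of the same line, for the 5 treatments; symbols are lines and the bar is their mean. HLA-E lies below 0 in every line at each time of ATO, TAP1 after ATO spreads from -1.40 in U266 to 0.77 in MM.1s, and B2M lies between -0.33 and 0.32 throughout.

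TAPBP, PSME1 and B2M were not called after ATO at any time. TAPBP read 4809 to 11021 at 6 h, against 6026 to 11816 in Control 2, and lay at -0.22, -0.29 and -0.20 at 6, 24 and 48 h. Its probe set 1555565_s_at, tested on its own, was called at 48 h (-0.52 ± 0.15, adjusted p = 0.0347). PSME1, a subunit of the activator that caps the proteasome, lay at -0.13, -0.25 and -0.13, with KMS11 at -0.52 at 6 h and the other lines between -0.06 and 0.03. B2M read 26625 to 30629 at 6 h, against 27113 to 30609 in Control 2, and its fitted values at the 3 times were 0.01, 0.08 and 0.06, each with a 95% interval of 0.19 to either side. Between the lines its changes at 48 h had an SD of 0.27. Tested on its own, 201891_s_at of B2M was at 0.02, 0.07 and 0.07. The dim 232311_at, above the array median on 17 of the 28 arrays, was at -1.09, 0.27 and 0.41. It was at 1.35 at 24 h of DAR and was called after no treatment (limma, lowest adjusted p = 0.0842).

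**Figure D4:**
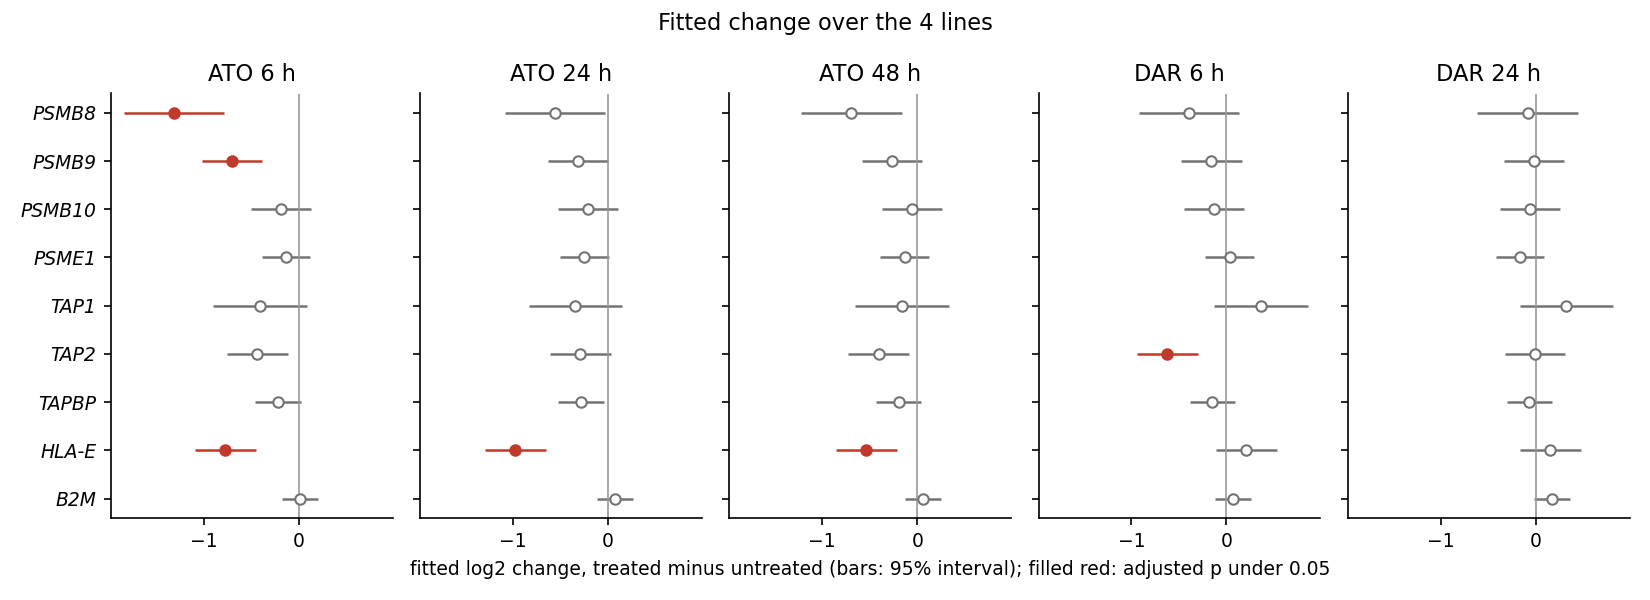
Fitted log2 change over the 4 lines with its 95% interval for the 9 genes and 5 treatments; filled red points have an adjusted p under 0.05. PSMB8, PSMB9 and HLA-E are filled at 6 h of ATO, HLA-E at 24 and 48 h, and TAP2 at 6 h of DAR.

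After 6 h of darinaparsin TAP2 fell, and at 24 h it was back near its control. It read 1467 in Control 1 of MM.1s, 782 at 6 h and 1325 at 24 h of DAR. In the same order it read 1260.2, 734 and 1227 in U266, 1704, 1279 and 1688 in KMS11, and 1875, 1368 and 2110.3 in 8226/S. All 4 lines were lower at 6 h (-0.88 to -0.41), with a fitted change of -0.62 ± 0.15 (adjusted p = 0.00808). TAP2 was 1 of 9 members called, where 6.37% of all genes were called lower and 6.86% higher, and the median of the 9 genes was -0.13, against 0.02 over all genes. Without U266 (-0.58, adjusted p = 0.0644) or MM.1s (-0.54, adjusted p = 0.0527) it missed the threshold, and over its alternatives the adjusted p ran from 0.00187 to 0.594. Of its other probe sets, 204770_at was called as well (-0.69 ± 0.22) and 204769_s_at was not (-0.28 ± 0.19), and the mean over the 4 probe sets, among them 208428_at, which was above the array median on 0 of the 28 arrays, was at -0.37, not called.

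Between 6 and 24 h of DAR, TAP2 rose by 0.62 ± 0.15 (adjusted p = 0.0138), 1 of 9 members called where 4.08% of all genes were called higher. Neither of the other probe sets read above the array median was called for this step, with 204770_at at 0.46 and 204769_s_at at 0.02 (adjusted p = 0.227 and 0.977). The rise was not called without U266, MM.1s or 8226/S (values 0.58 to 0.62). At 24 h TAP2 stood at -0.01 with a 95% interval of 0.32 to either side. At that time limma called 0 of 9 members, where 0.621% of all genes were called in either direction, 0 had an unadjusted p under 0.05, and 0 were called under each alternative that was run.

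PSMB8 was lower after 6 h of DAR by a similar amount in each line. It read 2297 in U266, 2021 in MM.1s, 2019 in KMS11 and 2431 in 8226/S at 6 h, against 3051, 2635, 2842 and 2998 in Control 1 of those lines. The DAR arrays did not overlap the Control 1 arrays, and the changes were -0.41, -0.38, -0.49 and -0.30. In the fit over all arrays, whose spread includes the ATO arrays, this was -0.39 ± 0.26 (adjusted p = 0.365) and not called. With the DAR arrays and their controls fitted alone, an alternative chosen after seeing the data, it was -0.39 ± 0.12 and called (adjusted p = 0.0441). It was not called under any of its 12 other alternatives (adjusted p = 0.247 to 1.000). PSMB9 was at -0.16 and PSMB10 at -0.13, not called in either fit. After 6 h of DAR 1 of the 10 plasma cell markers was called higher and 2 lower. Of all genes 6.86% were called higher and 6.37% lower at that time. The summed signal of the 10 markers was 61043 to 141428, against 66372 to 153644 in Control 1. The part of these markers in the DAR results was not tested.

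TAP1 and HLA-E were not called after DAR. TAP1 read 4243 in MM.1s after 6 h, against 1908 in Control 1, and 4234 in KMS11, against 2989.8 in Control 1. U266 was close to its control (3267, against 3232), 8226/S was below it (1239.6, against 1433), and the fitted change was 0.36 ± 0.24. HLA-E in 8226/S read 3676 in Control 1, 5098 at 6 h and 5923 at 24 h of DAR, while the other lines lay between -0.14 and 0.35 on the log2 scale. Its fitted change was 0.21 ± 0.16 at 6 h and 0.15 ± 0.16 at 24 h.

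In 8226/S both agents were given at the same dose, 2 µM, and with 1 array each the difference could not be tested. At 6 h PSMB8 was at -0.36 with ATO and -0.30 with DAR, and PSMB9 at -0.24 with ATO and -0.35 with DAR. TAP2 was at -0.27 with ATO and -0.45 with DAR. HLA-E was at -0.32 with ATO and 0.47 with DAR at 6 h, and at -0.41 with ATO and 0.68 with DAR at 24 h. The opposite signs at 6 h were not seen on its other probe sets. On 200904_at the 6 h values were -0.35 with ATO and -0.01 with DAR, and on 217456_x_at 0.02 and 0.60. At 24 h they were -1.73 with ATO and 1.10 with DAR on 200904_at, and -0.39 and 0.63 on 217456_x_at. In the other lines the doses differed and the agents were not compared.

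The constitutive subunits that the immunosubunits replace rose after 6 h of ATO when set against Control 2. PSMB5, PSMB6 and PSMB7 changed by 0.43 ± 0.11, 0.41 ± 0.12 and 0.47 ± 0.10, and POMP, an assembly chaperone of the proteasome, by 0.37 ± 0.10 (adjusted p = 0.0205, 0.0349, 0.00665 and 0.0232). These are 4 of 6 genes of that list, where 3.75% of all genes were called higher, and the list median was 0.39. Without MM.1s or without KMS11, 0 of the 4 were called by limma (values 0.24 to 0.43, with 3 and 4 at an unadjusted p under 0.05). PSMB6 and POMP were not called without U266 either (0.47 and 0.42), and on median-centred arrays PSMB5, PSMB6 and POMP were not called (0.40, 0.38 and 0.34). The rise depends on the control: PSMB7, PSMB5 and POMP were lower in Control 2 than in Control 1 (-1.12, -0.76 and -0.61), and against the pooled controls the values were -0.09 for PSMB7, 0.05 for PSMB5, 0.06 for POMP and 0.32 for PSMB6, 0 of these 4 called by limma and 1 with an unadjusted p under 0.05. PSMB8 was called against the pooled controls too (-1.44). Within a line, the change of PSMB8 minus that of PSMB5 at 6 h was -3.17 in MM.1s, -1.97 in KMS11, -1.17 in U266 and -0.66 in 8226/S. That of PSMB9 minus PSMB6 was -1.95, -1.21, -0.996 and -0.27 in the same lines. At 24 h POMP was called higher, at 48 h POMP, PSMB7 and PSME4, and after 6 h of DAR PSME3, an activator of another kind, fell (-0.52 ± 0.14). Each of these 5 calls was lost without MM.1s (POMP 0.26 and 0.36, PSMB7 0.35, PSME4 0.36, PSME3 -0.42), and each in at least 1 further fit that left out a line.

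**Figure D5:**
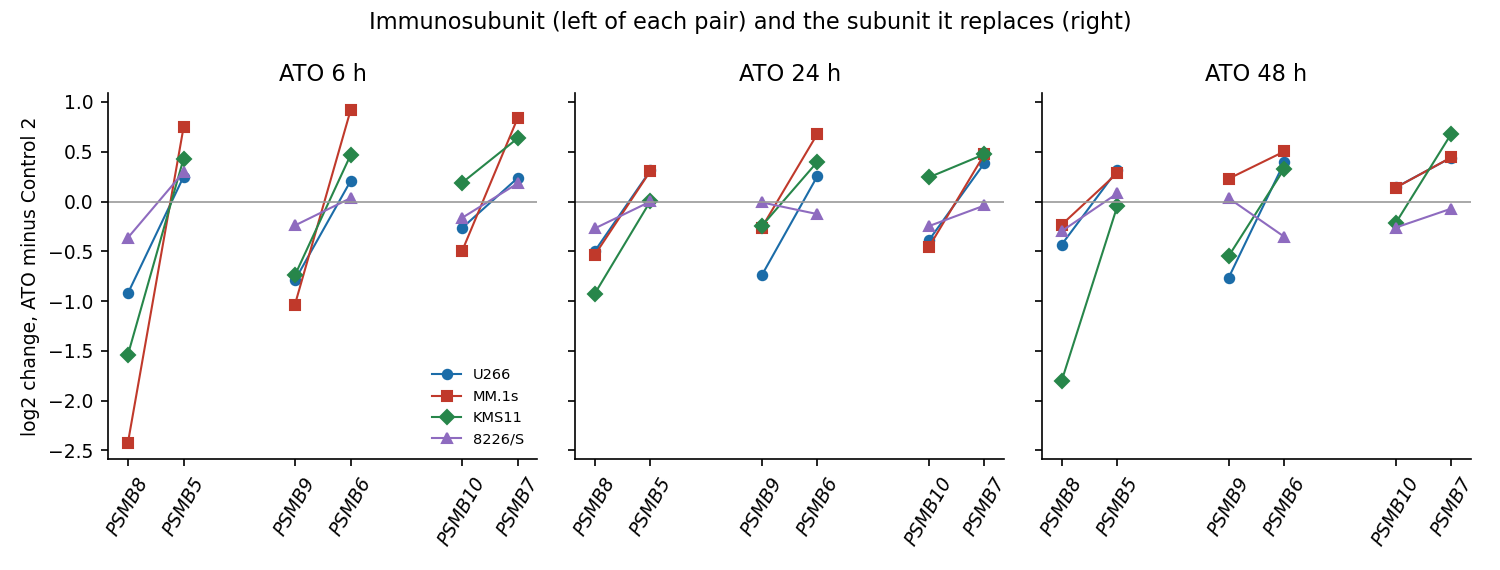
Log2 change, ATO minus Control 2, of each immunosubunit and of the constitutive subunit it replaces, with 1 joined pair of points per line, at 6, 24 and 48 h. At 6 h the immunosubunit is the lower one in each of the 12 pairs, by most for PSMB8 and PSMB5 in MM.1s (a difference of -3.17) and by least for PSMB9 and PSMB6 in 8226/S (-0.27).

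The other class I heavy chains fell at the later times of ATO. Of 4 tested, 0 were called by limma at 6 h, where 1 had an unadjusted p under 0.05, and 3 were called lower at 24 h and at 48 h. Of all genes 2.67%, 2.29% and 5.49% were called lower at those 3 times. HLA-F changed by -0.85 ± 0.14 and -0.76 ± 0.14 at 24 and 48 h, HLA-G by -0.66 ± 0.15 and -0.84 ± 0.15, and HLA-B by -0.35 ± 0.09 and -0.46 ± 0.09. HLA-C was at -0.21 and -0.23, not called. At 24 h HLA-B lost its call in each fit that left out 1 line (-0.37 to -0.32) and with each agent fitted alone, and HLA-G lost it without MM.1s (-0.68) or KMS11 (-0.62). HLA-F at 24 h and HLA-B, HLA-F and HLA-G at 48 h were called in each fit that left out 1 line. All 4 are read through _x_at probe sets, so signal of one class I gene in another cannot be told apart. Against the pooled controls limma called 0 of the 4 at 24 h, with 3 at an unadjusted p under 0.05 (-0.52 to -0.05), and HLA-B and HLA-G at 48 h. After DAR 0 of the 4 were called by limma, 0 with an unadjusted p under 0.05, with values between -0.08 and 0.13.

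Among 6 other loading and trimming genes, PDIA3 and CALR, chaperones of the loading complex, fell at 24 h of ATO (-0.45 ± 0.11 and -0.73 ± 0.21). CALR and ERAP1, a trimming peptidase, fell at 48 h (-0.68 ± 0.21 and -0.72 ± 0.18). These are 2 of 6 at each time, where 2.29% and 5.49% of all genes were called lower. Each of the 4 calls was lost without MM.1s (PDIA3 -0.37, CALR -0.66 and -0.50, ERAP1 -0.70), and each in at least 1 further fit that left out a line. Control 2 exceeded Control 1 by 1.52 for CALR, and against the pooled controls its values were 0.03 at 24 h and 0.08 at 48 h. ERAP2, another trimming peptidase, rose between 6 and 24 h of DAR (0.65 ± 0.14), a call that was lost without U266 (0.53).

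Of 15 regulators of class I genes tested, 7 were called higher after 6 h of DAR and 0 lower, where 6.86% of all genes were called higher and 6.37% lower, with a list median of 0.39, against 0.02 over all genes. The transcription factor IRF1 rose by 0.73 ± 0.14 (adjusted p = 0.000914), NLRC5, the transactivator of class I promoters, by 0.83 ± 0.21, SOCS1, an inhibitor of cytokine receptor signalling, by 1.32 ± 0.32, and the kinase JAK1 by 0.39 ± 0.10. IRF1 was higher in all 4 lines (0.46 to 0.97). Control 2 exceeded Control 1 by 0.71 for IRF1 and 0.49 for NLRC5. Against the pooled controls 5 of the 7 lost their call, among them IRF1 at 0.37, NLRC5 at 0.58 and JAK1 at 0.35, while SOCS1 was called (1.02). IRF1 was called in each fit that left out 1 line, and the other 6 lost their call in at least 1 such fit: NLRC5 without KMS11 (0.67) or 8226/S (0.74), SOCS1 without MM.1s (1.21), JAK1 without U266 (0.39) or 8226/S (0.35), and the remaining 3 in 2 or 3 of the 4 fits each. With the mean over all probe sets of a gene, SOCS1 (0.17) and IRF1 were among those not called. On median-centred arrays JAK1 was among those not called. Of the 7 members read that have an ISRE core in a window, 4 lay below 0 at 6 h of DAR, namely TAP2 (-0.62, the only one called), PSMB8 (-0.39), TAPBP (-0.15) and PSMB10 (-0.13), and 3 above it, PSME1 (0.03), B2M (0.07) and TAP1 (0.36). After 6 h of ATO the receptor subunit IFNGR1 rose by 0.51 ± 0.14, and the transcription factor IRF2 fell (-0.68 ± 0.17), while IRF1 (0.25) and NLRC5 (-0.24) were not called. For IRF2, Control 2 exceeded Control 1 by 1.65, and against the pooled controls its value was 0.15. IFNGR1 was not called without MM.1s (0.40) or KMS11 (0.42), nor IRF2 without MM.1s (-0.61) or KMS11 (-0.51).

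The class II genes, which present peptides from outside the cell, were 9 in all. Of these, HLA-DMB fell at 6 h of ATO (-0.75 ± 0.20) and HLA-DPA1 at 24 and 48 h (-0.74 ± 0.19 and -0.80 ± 0.19), and after DAR limma called 0, with 0 at an unadjusted p under 0.05. That is 1 of 9 at each time of ATO, where 2.67%, 2.29% and 5.49% of all genes were called lower. The HLA-DMB call was lost in each fit that left out 1 line (-0.83 to -0.67), and the HLA-DPA1 call at 24 h without U266 (-0.87), MM.1s (-0.48) or 8226/S (-0.69) and at 48 h without MM.1s (-0.61) or 8226/S (-0.64). Before treatment 7 of the 9 were called different between lines, where 16.9% of all genes were, both without the control number as a block. With that block 52% of all genes were called, and the class II count of that fit is not given here.

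Over the 28 arrays, after the mean of each line and control number was subtracted, the members moved together in part. PSMB8 and PSMB9 had the highest correlation of the 36 pairs (Pearson's r = 0.869), before TAP2 and PSMB8 (0.693), and B2M and PSMB10 had the lowest (-0.477). The genes outside the list with a course most like the mean of the 9 members were PFKP (r = 0.883), BMP8B (r = 0.848), DUSP6 (r = 0.848), MAN2A1 (r = 0.835) and ITGA4 (r = 0.823), over the same arrays. All of these values share arrays and controls and are given as a description.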

How the data were processed

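The deposited intensity values come from Affymetrix HG-U133 Plus 2.0 arrays and were made by the authors in GCOS, per the submitters' processing notes. Its version and the genome build are not given in the sources used here. RNA was column-purified and biotin-labelled, per the labels' protocols. The deposited values have a trimmed mean of 500.1 on each of the 28 arrays (2% trimmed at each side), and no further scaling was applied. They were analysed as log2(signal + 29), which understates changes of dim genes.

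Of 54675 probe sets, 41097 carry 1 gene symbol in the platform annotation, 1801 several and 11777 none. A gene was read from its brightest single-symbol probe set and tested if above the array median on at least 4 arrays. limma 3.58.1 in R 4.3.3 was fitted over all arrays with a separate baseline for each line and control number as the block (lmFit, eBayes with a trend). The p-values were adjusted by Benjamini-Hochberg over 15448 genes, so the adjusted p-values printed are limma's unless a test is named. The untreated arrays alone gave the baseline test. The number of arrays limits the precision, and the labels do not say that controls came from separate cultures.

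Members were named throughout. Of each further list up to 4 genes with the smallest adjusted p among those called in a comparison were named, plus NLRC5, IRF1, HLA-B, HLA-C, PSMB5, PSMB6 and PSMB7, and the 5 genes most like the members' mean. Members and lists were chosen with earlier results of these data known. PSME2 and LNPEP were not analysed here, and some other genes of the lists are not reported here. The line is the pairing: arrays of 1 line deviated together (Pearson's r 0.607 to 0.862 over 84 pairs). Promoter windows are those of RefSeq on GRCh38.p14. Alternatives covered the controls, block, offset, scaling, filter, probe sets and lines, and 1 (each agent fitted alone) was chosen after seeing the data.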

Additional observations from a re-analysis of the deposited data

Results flagged for a closer look

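In 63 groups of 4 arrays or changes, 3 had a value set far apart from the other 3, where chance gives about 1 in 20. TAPBP read 6679.9 in Control 1 of MM.1s, while the other lines read 3699 to 4036. PSMB8 changed by -1.80 in KMS11 after 48 h of ATO, while the other lines lay between -0.43 and -0.23. PSME1 changed by -0.52 in KMS11 after 6 h of ATO, while the other lines lay between -0.06 and 0.03.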

How the results depend on the processing

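Without the line in the block, where only the control number was kept (no replicate block), fewer members were called. There were 0 after ATO at 6 h (3 with the block), 24 h (1) and 48 h (1), after DAR at 6 h (1) and between the controls (5). Over all genes that fit called 30, 15 and 18 after ATO and 47 after 6 h of DAR, against 993, 777, 1837 and 2043 with the block, 0 at 24 h of DAR and 1619 (against 6953) between the controls. Among members 3, 1, 0, 1 and 3 then had an unadjusted p under 0.05 in those limma fits. The control number as a replicate block raised the baseline calls among members to 5, against 1 (8040 genes in all, against 2608), and median centring gave 0. Pooled controls gave 2 members called at 24 h of ATO, at 48 h of ATO and at 6 h of DAR, each against 1, and 512 genes in all at 24 h of DAR, against 96. The mean of probe sets gave 0 members at 6 h of DAR, with 2 at an unadjusted p under 0.05, and each agent fitted alone, chosen after seeing the data, gave 2. Quantile normalization left 2 of the 5 control differences. With 1 line left out, the members called ranged from 0 to 2 at 48 h of ATO, 0 to 1 at 6 h of DAR, 0 to 1 between 6 and 24 h of DAR and 3 to 4 between the controls; without MM.1s or 8226/S 3 control differences were called. Over all genes these fits called 249 to 807 at 6 h, 202 to 956 at 24 h and 651 to 2003 at 48 h of ATO, 1103 to 1842 at 6 h and 0 to 75 at 24 h of DAR, 587 to 973 (against 1196) between the DAR times, 4 to 82 (against 70) and 0 to 7 (against 0) between those of ATO, and 9 to 17 (against 22) and 0 to 2 (against 5) for line differences in the ATO and DAR response. Values that turned their sign were B2M between the controls under quantile normalization (0.079) and, against the pooled controls, PSMB7 at 6 h (-0.088) and 48 h (-0.19), IRF2 at 6 h (0.15) and CALR at 24 h (0.035) and 48 h of ATO (0.079). Median centring moved the higher and lower calls to 692 and 1161 at 6 h of DAR (against 1059 and 984), 492 and 925 at 48 h of ATO (against 989 and 848), and 1553 and 5659 between the controls (against 4343 and 2610; 2512 and 2458 with quantile normalization). It gave 41 and 33 at 24 h of DAR (against 76 and 20) and 5 and 27 between 6 and 24 h of ATO (against 22 and 48; 69 and 77 with quantile normalization), and 642 and 501 genes in all at 6 and 24 h of ATO. At 24 h of DAR quantile normalization called 55, the mean of probe sets 58 and each agent alone 63 genes, and an offset of 1 called 66 line differences in the DAR response. Tests of every probe set ranged from 0 (24 to 48 h of ATO) to 15283 calls (controls). The called values of PSMB8 at 6 h and HLA-E at 24 h of ATO lost their call in 1 of 13 alternatives each, the fit without the block. The cause of these differences was not tested.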
